A study of Homo sapiens with 6 samples.

Results

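The genes described here carry protein between the endoplasmic reticulum (ER) and the Golgi apparatus, namely subunits of the COPII and COPI vesicle coats, ARF GTPases with their regulators, TMED proteins and cargo receptors. They form a list of 46 genes, chosen by name. On the array, 44 of the 46 had at least 1 probe set annotated to that gene alone, out of 19775 such genes in the series, and all 44 passed the filter on dim probe sets. A gene with several probe sets was read by the one with the highest mean over the 6 arrays. The KDEL receptor gene KDELR2 was not analysed here. TMED7 had only probe sets that list a read-through gene as well, and these were not used.

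RNA was measured on 6 one-colour Affymetrix arrays, 1 for each of 3 conditions in 2 human lines derived from gastric cancer, AGS and HGC-27. The MIST1 arrays come from cells nucleofected with 3 µg of a MIST1 plasmid and 1.5 µg of the GFP plasmid pmaxGFP. The GFP control arrays come from cells that received 3 µg of empty vector and 1.5 µg of pmaxGFP, while parental cells were not transfected. Both transfected populations were sorted on GFP 24 h after transfection and grown for 24 h more, and no label says that parental cells were sorted. Expression was therefore transient, in cells selected for GFP, and the species and promoter of the MIST1 construct are not given in the sources used here. Each condition had 1 array per line, so the 2 lines serve as the replicates when conditions are compared, and p-values measure only the spread between these single arrays.

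COPII coats bud vesicles from ER exit sites. The GTPase SAR1, loaded by its exchange factor PREB, recruits the inner coat of SEC23 and SEC24, which binds cargo, and then the outer cage of SEC13 and SEC31. COPI coats return escaped ER proteins from the Golgi. ARF GTPases, loaded by GBF1 and switched off by ARFGAPs, recruit the coatomer complex, and KDEL receptors hand back soluble chaperones that carry a KDEL-type tail. TMED proteins and lectins such as LMAN1 select cargo for these vesicles. MIST1 (gene BHLHA15) is a basic helix-loop-helix factor of secretory cells such as the zymogenic chief cells of the stomach. It binds E-box DNA, and secretory vesicle genes such as RAB3D and RAB26 are among its known targets.

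The array's BHLHA15 probe set did not separate the MIST1 arrays. It read 72.5 (MIST1), 75.9 (GFP control) and 66.3 (parental) in AGS, and 58.7, 61.9 and 41.1 in HGC-27 in the same order, close to the median of all values, 50.5. RAB3D was higher on the arrays labelled MIST1 than in the GFP control by 1.55 on the log2 scale (SE 0.23) and RAB26 by 0.99. Neither passed limma's test at an adjusted p under 0.05, and no other gene did in this comparison. All 5 epithelial markers were higher in AGS. In HGC-27, KRT18, KRT19 and EPCAM lay between 5.9 and 35.8 but KRT8 between 1350 and 1562, and the mesenchymal markers VIM and ZEB1 were high while CDH2, at 44.4 to 57.6, was as low as in AGS (47.0 to 57.5). Both parental arrays stood apart from the transfected ones in the RNA MALAT1 and in 18S ribosomal RNA. The nuclear RNA MALAT1 (MIST1, GFP control, parental) read 529, 389.6 and 3685 in AGS, against 382, 324 and 1566 in HGC-27. A probe set in the middle of 18S ribosomal RNA was also highest in parental cells. It read 46.8, 48.2 and 1142 for AGS, against 52.7, 52.0 and 371 for HGC-27, with conditions listed as before. The gap was smaller for the 5' probe set of 18S in HGC-27, at 99.1, 109 and 141, against 37.3, 63.1 and 566 in AGS. The part of this difference in the comparisons with parental cells was not tested.

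The promoters of these genes are shown before their levels, because a short sequence recurs in them. RefSeq promoter windows (build GRCh38.p14, 250 bases before to 50 bases after the gene start) were found for 40 of the 46 genes and searched on both strands. TGACGTGG, the core of the unfolded protein response element bound by factors such as XBP1 and ATF6, was in 9 of the 40 windows (22.5%). It was in 0.795% of all 27305 windows and in 0.833% of the 15842 windows of protein-coding genes. Each site is printed on the strand that reads TGACGTGG, with the core in capitals and up to 14 bases on each side:
ARF1: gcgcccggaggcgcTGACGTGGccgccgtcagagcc
COPA: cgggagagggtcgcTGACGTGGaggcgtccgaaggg
COPB1: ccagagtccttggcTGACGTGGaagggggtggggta
COPB2, site before the start: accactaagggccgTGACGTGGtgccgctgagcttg
COPB2, site after the start: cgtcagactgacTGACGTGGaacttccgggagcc
GBF1: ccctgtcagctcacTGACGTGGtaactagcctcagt
KDELR3: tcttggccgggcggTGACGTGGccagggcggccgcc
SEC16A: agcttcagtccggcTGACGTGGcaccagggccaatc
SEC23A: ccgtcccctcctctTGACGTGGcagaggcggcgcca
SEC24A: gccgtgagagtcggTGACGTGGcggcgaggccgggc

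These stretches lie at chr1:228082678-228082713 for ARF1 and chr1:160343224-160343259 for COPA. The COPB1 site is in chr11:14499838-14499873, and the COPB2 sites are in chr3:139389822-139389857 and chr3:139389631-139389664. GBF1 has its site in chr10:102245523-102245558, KDELR3 in chr22:38468036-38468071 and SEC16A in chr9:136484704-136484739. SEC23A has its site in chr14:39103218-39103253 and SEC24A in chr5:134648592-134648627. All overlap the promoter window of the named gene. Relative to the gene start, the cores of COPA, GBF1 and SEC16A lie after it, that of SEC23A spans it, and COPB2 has 1 site on either side.

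A shorter motif was also frequent. CCACG, the second part of the ER stress response element, was in 35 of the 40 windows (87.5%), against 37.9% of all windows and 44% of coding ones. CCACG lies inside CCACGTCA, the reverse complement of TGACGTGG, so the 9 windows above are among these 35. The full ER stress element, CCAAT and CCACG joined by any 9 bases, was in 0 of the 40 windows and in 22 of all 27305. The cyclic AMP response element TGACGTCA was also in 0, against 1.98% of all windows. Among E-boxes, CAGCTG was in 7 of the 40 (17.5%, against 17.7% of all windows) and CATATG in 0 (against 3.05%). A match is a description of the letters in this window and not a measured binding site.

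TMED3, the gene with the largest MIST1 difference below, has its window at chr15:79310862-79311161 on the plus strand, printed whole with its only searched motif, CCACG, in capitals:
TMED3: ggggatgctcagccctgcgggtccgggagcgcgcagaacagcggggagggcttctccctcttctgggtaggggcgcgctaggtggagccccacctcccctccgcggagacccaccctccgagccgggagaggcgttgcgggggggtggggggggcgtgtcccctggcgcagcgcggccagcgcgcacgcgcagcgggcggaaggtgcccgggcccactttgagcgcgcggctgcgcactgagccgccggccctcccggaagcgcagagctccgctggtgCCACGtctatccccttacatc

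The first comparison sets MIST1 against the GFP control, which asks what MIST1 changed beyond transfection and sorting. No transport gene passed limma's test, and most differed little. The median over the 44 was 0.01 on the log2 scale, against -0.02 over all 13738 genes tested. Of the 44, 0 passed, against 0 of all genes (0%). At an unadjusted p under 0.05 there was 1 of 44, TMED9, against 181 of 13738 genes (1.32%). No member reached 1.5-fold in AGS, where 1.11% of all genes were higher and 0.721% lower by that much, or in HGC-27, where 1.3% were higher and 1.14% lower. In both lines at once, 0.211% of all genes were higher and 0.0218% lower by 1.5-fold. The arrays read RNA from many cells together, so a change in some cells and a smaller change in every cell cannot be told apart.

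TMED3, a TMED-family protein that recruits cargo into coated vesicles, differed most. AGS cells read 1789 with MIST1 and 1342 in the GFP control, and HGC-27 cells read 1765 with MIST1 and 1372 in the GFP control. Parental cells read 1224 in AGS and 819 in HGC-27. Both MIST1 arrays were thus above all 4 other arrays. The MIST1 difference was 0.39 on the log2 scale (SE 0.16, limma adjusted p = 1.0), 1.33-fold in AGS and 1.29-fold in HGC-27. In a limma fit of only the 4 arrays compared, TMED3 passed with an adjusted p of 0.013, as 1 of 62 genes called (0.451%). That fit has 1 residual degree of freedom. Leaving out either parental array rests this comparison on the same 4 arrays, so those fits are not separate support.

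TMED3 was also the only member at least 1.2-fold above both controls in both lines, a limit that 102 genes met (0.742%). At 1.5-fold, the limit used for this count, 0 members and 18 genes (0.131%) met it. Among TMED3 probe sets past the filter, the HGC-27 difference rested on 1. A dimmer TMED3 probe set read 73.6 with MIST1 against 55.7 in the AGS GFP control, but 78.5 with MIST1 against 77.8 in the HGC-27 control. Another read 61.2 with MIST1 against 34.2 in the AGS control, and 48.1 against 49.2 for HGC-27. Both of these dimmer probe sets read lower with MIST1 than in parental cells of each line.

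**Figure D1:**
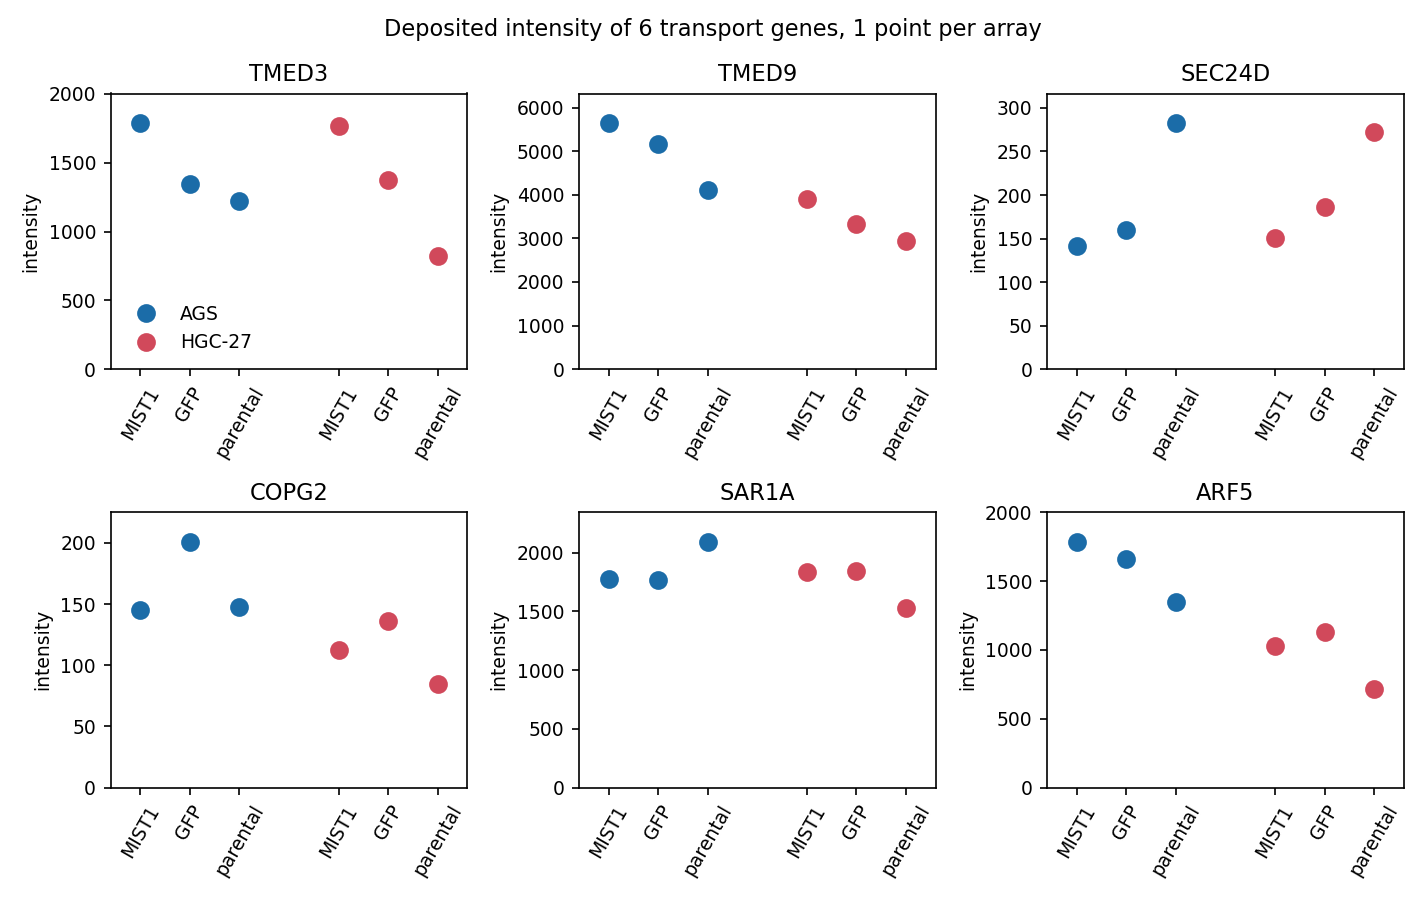
Deposited intensity (y axis, linear, from 0) of 6 transport genes on each of the 6 arrays, with AGS in blue and HGC-27 in red and MIST1, GFP control and parental from left to right within a line. TMED3 and TMED9 are highest with MIST1 in both lines, SEC24D is highest in parental cells, COPG2 is highest in the GFP control, and SAR1A moves in opposite directions in AGS and HGC-27.

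The other TMED members differed less. TMED9, an abundant cargo receptor of the early secretory pathway, read 5653 with MIST1 against 5160 in the AGS GFP control, and 3901 with MIST1 against 3326 in the HGC-27 control. Its difference was 0.18 (SE 0.07, limma adjusted p = 1.0), and its second probe set also read higher with MIST1 in both lines, by 0.04 and 0.12. TMED2, TMED5 and TMED10 lay between -0.03 and 0.01. TMED4, counted below among the accessories, was at 0.16 in AGS and 0.23 in HGC-27. In the same order, TMED1 was at -0.003 and -0.26 and TMED8 at -0.008 and 0.09.

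Among COPII genes, 5 of 13 were higher with MIST1 in each line and 3 were lower in each, against 24.3% and 32.6% of all genes. SEC24A, a cargo-binding inner coat subunit, had the highest difference, 0.18 (SE 0.19), with 618 against 539 in AGS and 530 against 472 in HGC-27 (MIST1 against GFP control). Its paralogue SEC24D had the lowest, -0.24 (SE 0.16), with 142 against 159.9 in AGS and 151 against 186 in HGC-27. SEC23A, the inner coat subunit that stimulates GTP hydrolysis by SAR1, was at -0.09 (SE 0.08). All of these intervals include 0.

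Coatomer genes gave the lowest value of all. COPG2, one of a pair of gamma subunits, read 145 with MIST1 against 201 in the AGS GFP control, and 112 with MIST1 against 137 in the HGC-27 control. Its difference was -0.38 (SE 0.18, limma adjusted p = 1.0). It was the only member at least 1.2-fold lower in both lines, as were 1.3% of all genes, and TMED3 the only one 1.2-fold higher, as were 1.81%. The GFP control was the highest of the 3 conditions for COPG2 in both lines, and its MIST1 level was 0.98 of the parental one in AGS and 1.33 of it in HGC-27. The other gamma subunit, COPG1, was at 0.04 (SE 0.12). COPZ2, a dim zeta subunit read at most at 61.3, went opposite ways, by -0.24 in AGS and 0.36 in HGC-27.

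ARF-cycle and cargo receptor genes gave small values. ARFGAP3, which switches ARF off on Golgi membranes, was at 0.14 (SE 0.12), and the 8 ARF-cycle genes spanned -0.07 to 0.14. ARF1 was read by 1 dim probe set, at most at 75.1, because its 3 other probe sets list a microRNA gene as well. Among receptors, ERGIC1, which cycles between ER and Golgi, read 546 with MIST1 against 661 in the AGS GFP control, and 690.1 with MIST1 against 789.8 in the HGC-27 control. Its difference was -0.24 (SE 0.13), and a second probe set gave -0.25 and -0.23 in AGS and HGC-27 while another gave -0.11 and 0.01. The remaining receptors lay between -0.09 and 0.09.

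Over all 44 members, 16 were higher with MIST1 in both lines (36.4%, against 24.3% of all genes). In the other direction, 9 were lower in both (20.5%, against 32.6%). The remaining 19 members went opposite ways. Of 44 other member probe sets past the filter, 34 in AGS and 30 in HGC-27 had the sign of the one used. Of the members, 6.82% were at least 1.2-fold apart in AGS, against 13.4% of all genes, and in HGC-27 this was 9.09%, against 18%. Their median SE was 0.10, against 0.17 over all genes.

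**Figure D2:**
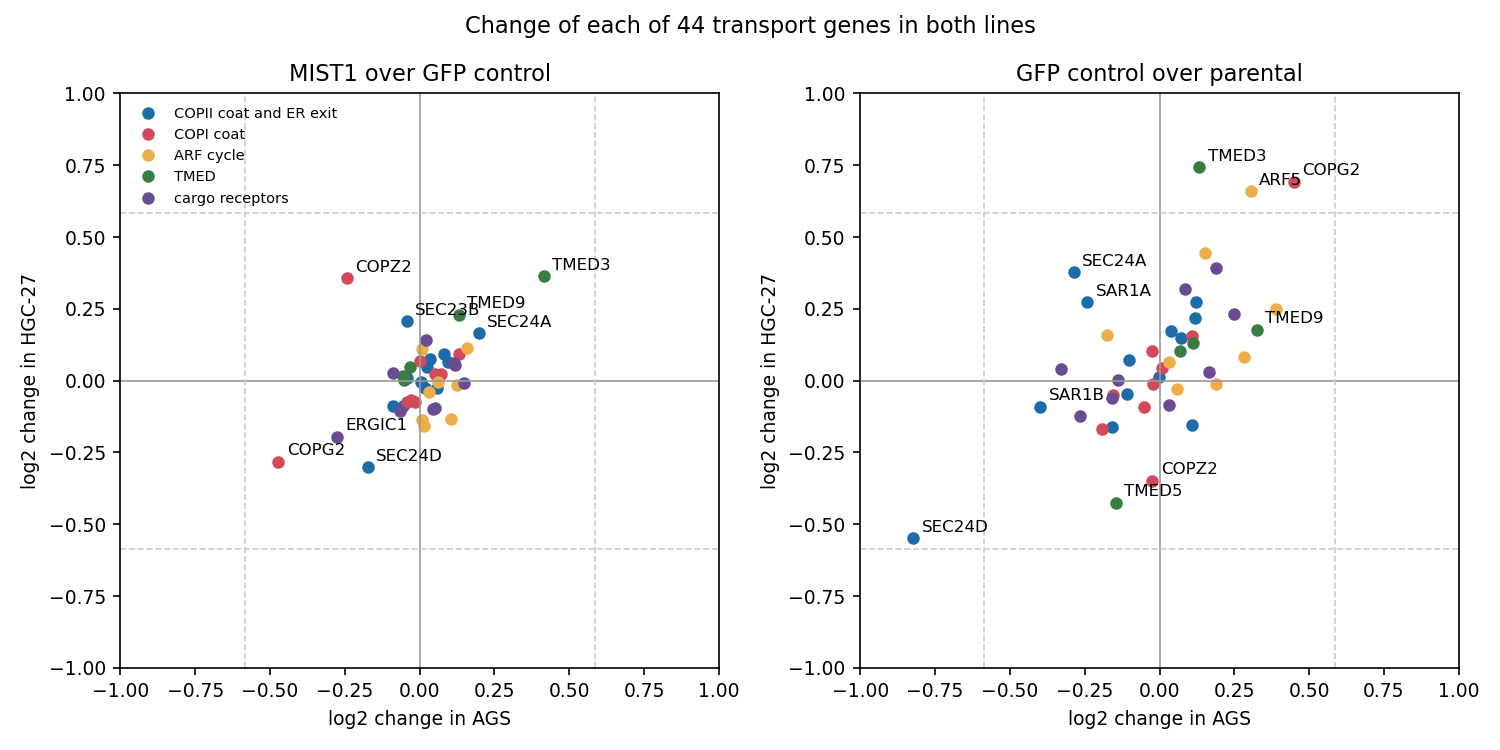
Log2 change of each of the 44 genes in AGS (x axis) against HGC-27 (y axis), for MIST1 over GFP control on the left and GFP control over parental on the right, coloured by role, with dashed lines at 1.5-fold. On the left every point lies inside the dashed lines and TMED3 (0.41, 0.36) and COPG2 (-0.47, -0.28) lie farthest from the centre on the diagonal, and on the right SEC24D (-0.82, -0.55) passes the line in AGS and TMED3, COPG2 and ARF5 pass it in HGC-27.

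Against parental cells, MIST1-transfected cells had more TMED9 and less SEC24D. These were the only members that passed, 2 of 44 (4.55%), against 454 of 13738 genes (3.3%). In direction, 2.13% of all genes were called higher and 1.17% lower. This comparison includes transfection and sorting, and it shares its MIST1 arrays with the first.

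SEC24D read 142 with MIST1 against 283 in parental AGS cells, and 151 with MIST1 against 272 in parental HGC-27 cells. The GFP control lay between them in both lines, at 159.9 and 186. Both parental values were above all 4 transfected ones. The other SEC24D probe sets did not pass the filter. SEC24D fell by 0.92 on the log2 scale with MIST1 (SE 0.16, limma adjusted p = 0.0421), which is 0.50 of the parental level in AGS and 0.56 in HGC-27. It was the only member changed by 1.5-fold in both lines, a fall that 1.71% of all genes showed, while 3.82% of all genes were higher by that much.

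TMED9 read 5653 with MIST1, 5160 in the GFP control and 4115 in parental cells in AGS. In HGC-27 the same conditions read 3901, 3326 and 2941. The order of the 3 conditions was the same in both lines, and TMED9 rose by 0.43 (SE 0.07, limma adjusted p = 0.0419). Both calls were lost without the block for cell line, where the limma adjusted p was 1.0 for each. They were also lost without either MIST1 array. Without the AGS MIST1 array the adjusted p was 0.114 for SEC24D and 0.0848 for TMED9, and without the HGC-27 one it was 0.0950 for SEC24D and 0.0850 for TMED9. Both also missed the threshold with no floor, the floor at the median, no filter, the mean of all probe sets and no variance trend, at adjusted p values of 0.0524 to 0.162. With only 1 parental array, assumed to vary like the other groups, 15 members passed without the AGS one, where 39.4% of all genes did, and 15 without the HGC-27 one, where 38.3% did, so these members' shares are near or below the background.

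TMED3 had a large estimate that missed the threshold, 0.83 (SE 0.16, limma adjusted p = 0.0529), with a 1.46-fold higher level in AGS and 2.15-fold in HGC-27. ARF5, a GTPase that recruits coatomer, followed at 0.47 (SE 0.12, adjusted p = 0.0846), then the cargo receptor SURF4 at 0.31 (SE 0.08, adjusted p = 0.0786). The dimmer TMED3 probe sets past the filter were instead lower with MIST1 in each line. They read 73.6 and 61.2 against 100.6 and 67.0 in parental AGS cells, and 78.5 and 48.1 against 109.4 and 50.05 in HGC-27. The other SURF4 probe sets differed less. With MIST1 they read 2602 and 2555 against 2417 and 2533 in parental AGS cells. In HGC-27 they read 2747 and 2447 against 2658 and 2416. On the low side were TMED5 at -0.28 (SE 0.11), SEC23A at -0.25 (SE 0.08) and the mannose lectin LMAN2 at -0.23 (SE 0.10). Of the 44, 19 were higher in both lines (43.2%, against 36.4% of all genes) and 10 lower in each (22.7%, against 25.6%). ARF-cycle genes were higher in both lines in 7 of 8 cases, whereas coatomer genes were lower in both in 5 of 9.

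GFP control cells against parental cells show what transfection with empty vector and sorting did, together with whatever else separates the parental arrays. No member passed, 0 of 44, against 34 genes (0.247%), of which 18 were higher (0.131%) and 16 lower (0.116%). At an unadjusted p under 0.05 there were 9 of 44 members and 3165 genes (23%). With 1 parental array, again assumed to vary like the other groups, 16 members passed without the AGS one, against 39.1% of all genes, and 12 without the HGC-27 one, against 33.7%. SEC24D had the lowest estimate, -0.69 (SE 0.16, limma adjusted p = 0.0844). The highest was COPG2 at 0.57 (SE 0.18, adjusted p = 0.137), which read 201 in the GFP control against 147 in parental AGS cells, and 137 against 84.5 in HGC-27.

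ARF5 followed at 0.48 (SE 0.12, limma adjusted p = 0.0981), with 1663 in the GFP control against 1346 in parental AGS cells, and 1133 against 716 in HGC-27. TMED3 was at 0.44 (SE 0.16), 1.10-fold in AGS and 1.67-fold in HGC-27. Its dimmer probe sets were lower in the GFP control instead, by 0.85 and 0.97 on the log2 scale in AGS and by 0.49 and 0.02 in HGC-27, and the mean of its probe sets gave -0.24. The ARF GTPase-activating protein gene ARFGAP1 was at 0.32 (SE 0.14). Lower estimates after SEC24D were TMED5 at -0.29 (SE 0.11), SAR1B, which starts COPII assembly, at -0.24 (SE 0.11) and LMAN2 at -0.20 (SE 0.10). For TMED5 the mean of its probe sets turned the sign, to 0.043.

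By role, 5 of 8 ARF-cycle genes were higher in the GFP control in both lines and 0 were lower, with a median of 0.14. The TMED genes were higher in 4 of 5 cases, and coatomer genes were lower in both lines in 5 of 9. Over all 44, 20 were higher in both lines (45.5%, against 37.1% of all genes) and 12 lower in each (27.3%, against 23.4%). These directions depend on the probe set used. Of 44 other member probe sets past the filter, 23 in AGS and 24 in HGC-27 had the sign of the one used. At 1.5-fold, SEC24D was lower in AGS, as were 6.01% of all genes, and ARF5, COPG2 and TMED3 were higher in HGC-27, as were 13.2%. No member was 1.5-fold higher in AGS (7.97% of all genes) or lower in HGC-27 (5.28%). Members at least 1.5-fold apart in either direction made up 2.27% in AGS, where the share of all genes was 14%, and 6.82% in HGC-27, where it was 18.5%. The median over all genes in HGC-27 was itself 0.13, and 0.02 after quantile normalization.

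ER chaperones listed as KDEL-bearing, whose tails were not checked here, were mostly below parental levels. Of 12 measured, 8 had lower values in the GFP control of each line and 1 had higher values, against 23.4% and 37.1% of all genes. Their median was -0.32, at -0.11 in AGS and -0.52 in HGC-27, and 0 passed, against 0.247% of all genes. HSPA5, the main ER chaperone, read 8952 in the GFP control against 10546 in parental AGS cells, and 5882 against 10136 in HGC-27. KDELR1 was at 0.20 (SE 0.08, limma adjusted p = 0.215) and KDELR3 at -0.07 (SE 0.12) in the same comparison.

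With MIST1 against parental cells, 2 of the 12 chaperones passed, against 3.3% of all genes. The disulfide isomerase PDIA4 was lower by 0.90 (SE 0.14, limma adjusted p = 0.0410) and SDF2L1 by 0.73 (SE 0.13, adjusted p = 0.0443). XBP1, a regulator of secretory genes, was also lower, by 0.53 (adjusted p = 0.0461), while the transcription factor gene CREB3 was higher, by 0.85 (adjusted p = 0.0419). The 9 members with TGACGTGG in their promoters had a median of -0.04 in this comparison, with 3 of 9 higher. The 30 other tested members with a window had a median of 0.04, with 20 higher, and the median over all genes was 0.05. Against the GFP control, 0 chaperones and 0 of these 9 genes passed. The calls of PDIA4, SDF2L1, XBP1 and CREB3 were lost where no gene at all passed, with the floor at the median, no filter, no variance trend or no block. Whether they held in the other settings, such as no floor, the mean of probe sets or an array left out, was not examined.

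**Figure D3:**
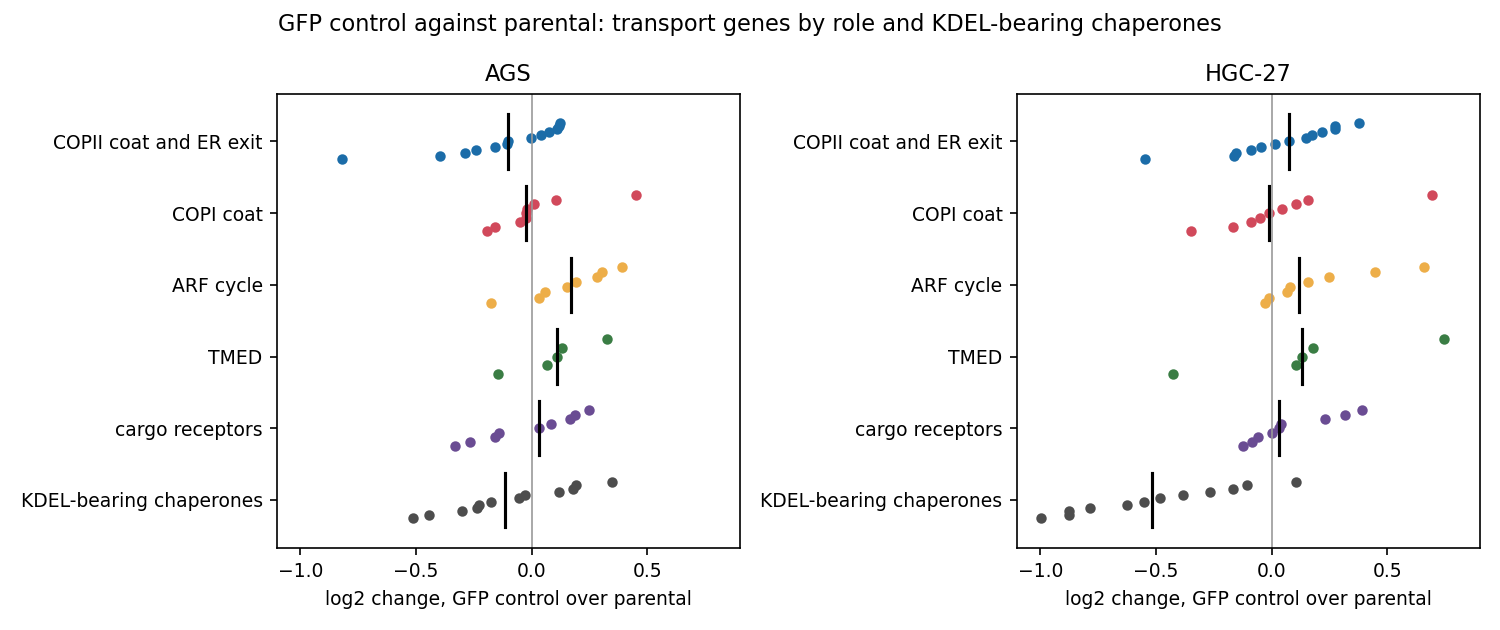
Log2 change of GFP control over parental (x axis) in AGS on the left and HGC-27 on the right, with 1 point per gene and a black bar at the median of each role of the 44 transport genes and of the 12 chaperones listed as KDEL-bearing. The chaperone median is -0.11 in AGS and -0.52 in HGC-27, while the role medians lie between -0.10 and 0.17 in AGS and between -0.01 and 0.13 in HGC-27.

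A test of whether the response to transfection differed between the lines was passed by 1 member, SAR1A, the second SAR1 GTPase of COPII assembly. Here the GFP control and MIST1 arrays of a line were pooled and set against its 1 parental array. The spread, with 2 residual degrees of freedom, came only from MIST1 against GFP control within a line, and the parental array was assumed to vary likewise, so the p-value holds no measure of the spread between parental samples. In HGC-27, SAR1A read 1838 with MIST1, 1843 in the GFP control and 1526 in parental cells. In AGS it read 1776, 1772 and 2096 in the same order. The transfected arrays were higher than parental in HGC-27 and lower in AGS.

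The difference between the lines was 0.51 on the log2 scale (HGC-27 minus AGS, SE 0.09, limma adjusted p = 0.0274). In the same test 1394 genes passed (10.1%). Of all genes tested, 7.53% passed with a higher value in HGC-27 and 2.62% with a lower one. The call was lost without any 1 of the 4 transfected arrays, where the limma adjusted p ran between 0.164 and 0.239, and also with the floor at the median, the mean of all probe sets or no variance trend (0.0543 to 0.0814). Other SAR1A probe sets kept a larger value in HGC-27 but not the opposite signs. They gave -0.31 and 0.66 in HGC-27 and -0.56 and 0.23 in AGS for GFP control over parental.

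SEC24A at 0.65 (SE 0.18, limma adjusted p = 0.0695) and TMED3 at 0.59 (SE 0.29) had larger estimates than SAR1A, and COPG2 at 0.34 (SE 0.32) a smaller one, and none of these passed. The lowest were GBF1, the ARF exchange factor, at -0.27 (SE 0.15), SEC16A, an ER exit site scaffold, at -0.24 (SE 0.12), TMED5 at -0.24 (SE 0.09) and ARFGAP1 at -0.21 (SE 0.15). Of the 44, 29 lay above 0 (65.9%, against 61.8% of all genes). The median was 0.07, against 0.12 over all genes.

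More members passed between the lines than between any pair of conditions. Between AGS and HGC-27, 27 of 44 members passed (61.4%), against 60.4% of all genes, a share near the background. In direction, 20 members were higher in AGS (45.5%, against 33.2% of all genes) and 7 were lower (15.9%, against 27.3%). The 3 arrays of each line did not overlap for 22 members higher in AGS (50%, against 34.3%) and 7 higher in HGC-27 (15.9%, against 27.4%). ARF1, counted as higher in AGS both ways, passed the filter on dim probe sets only through its AGS arrays. Of the fibroblast and mesenchymal markers, 5 of 5 and 2 of 3 were lower in AGS, with summed fibroblast levels of 776 to 1432 in AGS and 18190 to 20705 in HGC-27. The 3 leukocyte markers on the array, of 5, summed to 21.9 to 41.8 in AGS and 52.6 to 59.9 in HGC-27, with none past the filter, and endothelial ones to between 120.1 and 144 in either line. All 5 epithelial markers were higher in AGS, with summed levels of 39088 to 46067 in AGS and 1448 to 1690 in HGC-27. The part of this difference in the transport genes was not tested.

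Cargo receptors ranged from -1.24 to 1.39 on the log2 scale. KDELR1, a retrieval receptor for KDEL-tailed chaperones, averaged 5342 ± 242 in AGS and 2045 ± 226 in HGC-27 (SD over the 3 conditions, n = 3 arrays per line), a difference of 1.39 (SE 0.07, limma adjusted p = 5.89e-06). Its second probe set gave 1.75. KDELR3 averaged 919.7 ± 45.4 in AGS and 412 ± 15.5 in HGC-27, a difference of 1.16 (SE 0.10, adjusted p = 8.83e-05), with 1.16 and 1.17 from its other probe sets. LMAN1, the lectin that carries coagulation factors with its partner MCFD2, went the other way.

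LMAN1 averaged 1437 ± 80.8 in AGS and 3397 ± 80.1 in HGC-27, a difference of -1.24 (SE 0.07, limma adjusted p = 9.8e-06), with -1.59 and -1.74 from its other probe sets. MCFD2 was at 0.21 (SE 0.07, adjusted p = 0.0292), opposite in sign to LMAN1. Among the remaining receptors ERGIC3 was higher in AGS at 0.64 and LMAN2 lower at -0.37, and SURF4, ERGIC1 and ERGIC2 did not pass. The chaperones listed as KDEL-bearing were higher in AGS in 6 of 12 cases by the same test and lower in 0. Of all genes, 33.2% were higher and 27.3% lower. The chaperone median was 0.27.

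In the coatomer, subunits differed in opposite directions. COPE averaged 1750.4 ± 18.4 in AGS and 3580 ± 83.8 in HGC-27, a difference of -1.03 (SE 0.06, limma adjusted p = 1.69e-05), and a dim second probe set gave -1.05. COPZ1 was lower in AGS by 0.41, and its second probe set gave -1.64. COPB2 was higher by 0.70, COPA by 0.59 and COPG2 by 0.58, with 0.80 from a second COPA probe set and -0.36 from a dimmer one. COPB1, COPG1, COPZ2 and ARCN1 did not pass.

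In the ARF cycle, 5 of 8 genes passed as higher in AGS and 2 as lower, against 33.2% and 27.3% of all genes. ARFGAP1 averaged 705 ± 106 in AGS and 264 ± 22.9 in HGC-27, a difference of 1.41 (SE 0.11, limma adjusted p = 6.25e-05), with 1.58 from its second probe set. ARF5 was higher by 0.75, ARF1 by 0.65, ARFGAP3 by 0.54 and ARF4 by 0.38. GBF1 averaged 267 ± 37.3 in AGS and 452 ± 13.4 in HGC-27, a difference of -0.77 (SE 0.12, adjusted p = 0.00154). ARF3 was lower at -0.37, but another ARF3 probe set gave 0.26.

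All 5 TMED genes tested as members had positive estimates, and 4 passed, against 60.4% of all genes passing. TMED1, TMED4 and TMED8, counted below among the accessories, were at -0.76, -0.04 and -0.59. TMED5 averaged 2679 ± 180.4 in AGS and 1087 ± 182 in HGC-27, a difference of 1.31 (SE 0.09, limma adjusted p = 2.29e-05). Its other probe sets did not show this, at -0.03, -0.59 and -0.08. TMED9 and TMED2 were each higher by 0.55 and TMED10 by 0.32, and a second TMED10 probe set gave -0.22. TMED3 was at 0.19 (SE 0.13), the only TMED member that did not pass.

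Of 13 COPII genes, 5 passed, against 60.4% of all genes. Higher in AGS were SEC24B at 0.63, SEC23B at 0.57, TFG at 0.40 and SEC16A at 0.40. SAR1B was lower, with 1346 ± 203 in AGS and 2036 ± 74.4 in HGC-27, a difference of -0.61 (SE 0.09, limma adjusted p = 0.00139). Of its other probe sets, 1 gave 0.35. The outer cage genes SEC13 and SEC31A, at 0.13 and 0.16, did not pass, nor did SEC24C at 0.05 (SE 0.09).

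Of the 9 members with TGACGTGG in their promoters, 8 had a positive estimate and 6 passed, GBF1 as the only lower one, with a median of 0.42. The 6 include ARF1, which passed the filter only through AGS. The 30 other tested members with a window had a median of 0.14, with 20 higher and 18 passing. Over all genes, 7394 of 13738 had a positive estimate and 60.4% passed, so both passing counts are near the background. At 1.5-fold, 10 members were higher in AGS (22.7%, against 24.5% of all genes) and 4 lower (9.09%, against 20.4%). Further probe sets were available for 8 of these members, and 11 of the 16 had the same sign.

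**Figure D4:**
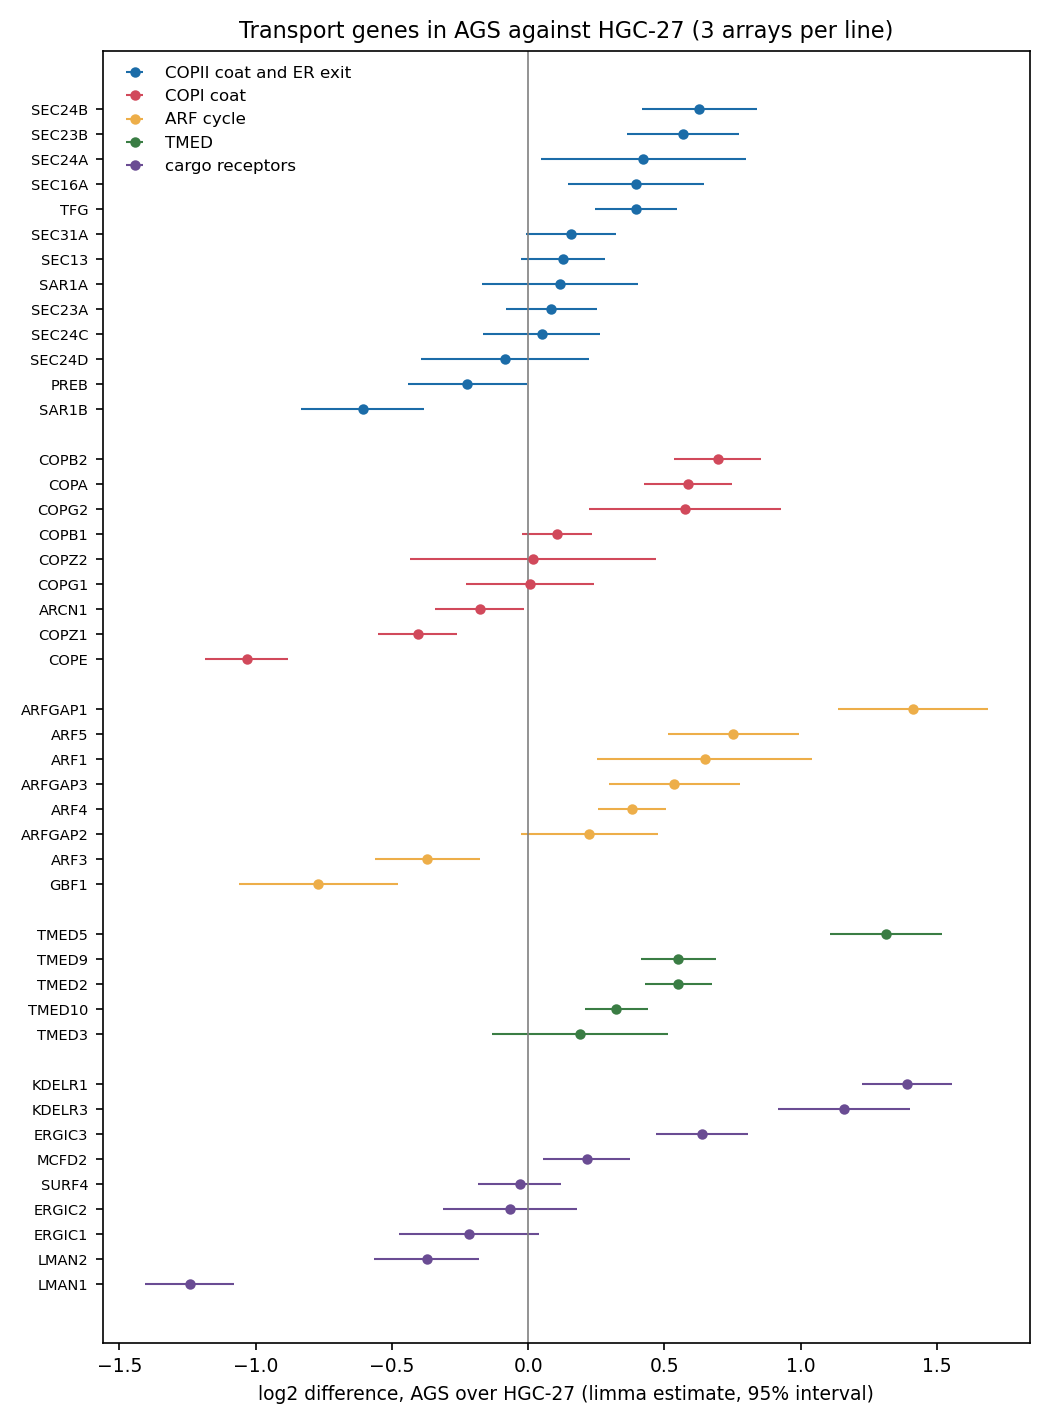
Log2 difference of AGS over HGC-27 (x axis) for the 44 genes, grouped and coloured by role, as limma estimates with 95% intervals. Each line has 3 arrays, 1 per condition, which stand in for replicates. ARFGAP1 (1.41), KDELR1 (1.39), TMED5 (1.31) and KDELR3 (1.16) lie past 2-fold on the AGS side, LMAN1 (-1.24) and COPE (-1.03) lie past it on the HGC-27 side, and the 13 COPII genes lie between -0.61 and 0.63.

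Past 2-fold, 4 members were higher in AGS (9.09%, against 15.4% of all genes) and 2 lower (4.55%, against 12.9%).

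Neighbouring genes of the pathway were counted in the same fits. Of 42 ER exit and tethering accessories such as TRAPP subunits and Rab GTPases, 39 were tested, and 0 passed in any comparison of conditions. Against the GFP control, 6 had higher values with MIST1 in each line and 18 had lower values, against 24.3% and 32.6% of all genes. Their median was -0.03. Between the lines 15 passed as higher in AGS and 8 as lower, against 33.2% and 27.3% of all genes. The ER exit organiser MIA2 had the largest difference, 1.77 (SE 0.12, limma adjusted p = 2.71e-05), and TRAPPC10 was lower by 0.95. Of 5 further ARF-family genes and exchange factors tested, 4 were higher in AGS and 0 passed between conditions.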

How the data were processed

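Values were the intensities the authors deposited for 6 arrays, 1 per probe set and array, on a linear scale (0.48 to 19070.5). The program dChip is named in the design text, and background correction and scaling are not given in the sources used here. Array medians lay between 49.12 and 51.96, so no scaling was added. The deposited intensities were set to a floor of 17.6 (25th percentile) and taken to log2. Of 54675 probe sets, 41097 have 1 gene in GEO's platform annotation, 1801 several and 11777 none listed. Probe sets above the median of all values, 50.53, on at least 2 arrays were kept, and 13738 genes were tested, each through its brightest probe set. No probe set used for a member has a name ending in _x_at, and 16 have _s_at, which can read related transcripts.

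limma 3.58.1 (R 4.3.3; eBayes with trend, Benjamini-Hochberg over all genes tested, threshold 0.05) was fitted to all 6 arrays with cell line as a block. It had 2 residual and 4.46 prior degrees of freedom (4.22 in the test of transfection response by line). The pairing comes from the labels, which give the line of each array, and arrays of 1 line correlated at 0.971 to 0.996, against 0.692 to 0.719 between lines. The number of arrays limits the precision. Members named with values are those that passed, the 4 highest and 4 lowest per comparison and those past 1.5-fold in both lines. Further members were named after their values were seen. The members and all gene lists were chosen with earlier results of these data known. Motifs were searched in Python 3.11.15. Alternatives were floor, filter, quantile normalization, mean of probe sets, variance trend, block, the 4 arrays compared and leaving out each array.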

Additional observations from a re-analysis of the deposited data

Results flagged for a closer look

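SAR1A, a GTPase that starts COPII assembly, passed a test of the difference between the lines in their response to transfection, at 0.51 on the log2 scale (HGC-27 minus AGS, limma adjusted p = 0.0274). Each line has 1 parental array in this test, the spread comes only from the transfected arrays, and the spread between parental samples was not measured. Both parental arrays also stood apart in MALAT1 and 18S ribosomal RNA, and the part of this in the SAR1A difference was not tested. In HGC-27 it read 1838 and 1843 in the transfected cells and 1526 in parental cells, and in AGS 1776, 1772 and 2096. No other member passed this test, so 1 of 44 did (2.27%), against 10.1% of all genes. The call was lost without any 1 of the transfected arrays. Other SAR1A probe sets did not show the opposite signs.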

How the results depend on the processing

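Of 768 recomputed values of named members, 686 kept direction and side of the threshold, 49 lost the threshold, 30 gained it and 3 turned sign. The 3 were all with the mean of all probe sets, namely GFP control over parental for TMED5 (0.043) and TMED3 (-0.24), and the transfection response of TMED5 (0.20). For MIST1 over GFP control the count of members called was 1, TMED3, with only the 4 arrays compared, a fit with 1 residual degree of freedom. Without either parental array, this comparison rests on the same 4 arrays. For GFP control over parental it was 0 to 16, with 16 without the AGS parental array (39.1% of all genes) and 12 without the HGC-27 one (33.7%). For MIST1 over parental, 2 members fell to 0 with no floor, no filter, the floor at the median, the mean of all probe sets or no variance trend. It was also 0 with no replicate block for cell line, and 0 to 15 leaving out 1 array, with 15 without either parental array (39.4% of all genes without the AGS one, 38.3% without the HGC-27 one). For the transfection response, 1 member fell to 0 with the floor at the median, the mean of all probe sets or no variance trend, and to 0 without any 1 transfected array. The response could not be fitted without a parental array. Members past the Boolean rule numbered 1 at 1.2-fold. For AGS over HGC-27 the count kept within 23 to 34. The cause of these shifts was not tested.

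Over all genes, GFP control over parental called 34 genes, 75 after quantile normalization and 911 in the 4 arrays compared. It called 0 with no floor, no trend, no block, no filter or the floor at the median, and 1 with the mean of probe sets. MIST1 over parental called 454 genes, 65 with no floor, 75 with the mean of probe sets and 827 in the 4 arrays compared, and 0 with no trend, no block, no filter or the floor at the median. The transfection response called 1394 genes, 642 with no filter, 239 with no trend and 116 with the floor at the median.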
